A study of Sus scrofa with 6 samples.

Results

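The zona pellucida genes ZP2, ZP3 and ZP4 and the oocyte transcription factor genes FIGLA, NOBOX and LHX8 were followed in pig 4-cell embryos kept at normal or raised temperature. They were selected by gene symbol from a list of 8, and 6 of the 30376 genes in the deposited expression table carried one of the listed symbols. SOHLH2 was not analysed here, and for OOSP2 a row that bears its product name under a locus identifier is described separately below. Embryos came from oocytes activated electrically (2 pulses at 120 V, each lasting 60 µs) and were cultured in PZM-5 medium with BSA under mineral oil and 5% CO2 for 4 days, at 38.5 °C (control, 3 libraries, genotype WT) or at 41.5 °C (high temperature, 3 libraries, for which the submitters wrote HT in the genotype field). The labels name no fertilization, and electrical activation was common to both groups. About 300 4-cell samples in lysis buffer entered library construction, with no statement whether per library or in all, and nothing says that replicates were separate cultures. The p-values therefore rest on library-to-library spread, part or all of which may be technical. The series asks how heat affects activation of the embryonic genome.

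The zona pellucida is the glycoprotein coat that the growing oocyte secretes around itself, and its proteins bind sperm and protect the embryo until hatching. In the mouse, the helix-loop-helix factor FIGLA (with its partner TCF3) is needed for zona gene transcription, and the homeodomain factors NOBOX and LHX8 are needed for early follicle growth and for other oocyte genes. These genes are transcribed in the growing oocyte, and their messengers can be stored. Only 4-cell embryos were sampled here, so when these messengers are lost was not measured. A count of reads in a 4-cell embryo does not separate stored from newly made RNA. Nor, in pooled embryos, can fewer cells that hold a transcript be told apart from less of it per cell.

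The libraries held 28114005 to 30079385 reads assigned to genes. All 8 of the 8 markers of stored oocyte transcripts that were looked up were above 1 CPM (counts scaled to the library size after TMM scaling), with a summed level of 2539 to 3378 CPM at 38.5 °C and 2349 to 2652 CPM at 41.5 °C. Most of this sum was DPPA3 (mean 1594 CPM) and BMP15 (863.3). The others were GDF9 (120.3), MOS (96.27), POU5F1 (43.33), YBX2 (13.29), NLRP5 (7.835) and ZAR1 (3.06), the last 2 no higher than some markers of other cells below. Of 17 measured cumulus and granulosa cell markers 5 had a mean above 1 CPM over the 6 libraries. They were INHBA (7.948), NR2F2 (7.495), VCAN (7.343), TNFAIP6 (1.998) and STAR (1.558). The sum of all 17 was 22.4 to 36.4 CPM at 38.5 °C and 21.8 to 28.3 CPM at 41.5 °C. FSHR, AMH, INHA, CYP11A1 and FOXL2 had 0 counts in every library. Of 7 measured stroma and blood markers 3 had such a mean, COL1A2 (2.596), PDGFRA (2.35) and PTPRC (1.303). FIGLA and NOBOX, at means of 2.405 and 2.204 CPM, were in the same range. The source of these marker reads was not tested. 18S ribosomal RNA and ribosomal protein genes ran in order of replicate number in both groups, with control replicate 1 and high-temperature replicate 3 at the ends. 18S was at 104.7, 346.8 and 553.6 CPM in control replicates 1 to 3 and 218, 422.4 and 968 CPM in high-temperature replicates 1 to 3. In the same order, the mean of 81 ribosomal protein genes was 7.23, 6.24 and 5.70 log2 CPM and 6.88, 6.35 and 5.60 log2 CPM.

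All 6 genes were detected in all 6 libraries at both temperatures, and none of the 6 passed the test between temperatures. Per gene length ZP4 was the most abundant, ZP2 and LHX8 followed, ZP3 was lower, and FIGLA and NOBOX had 18 to 121 reads per library. By the edgeR quasi-likelihood test the adjusted p was 0.999923 for each, where 0% of the 16056 genes tested were called. DESeq2 called 0 of the 6 and 0.0374% of all genes tested. No gene of the 6 had an unadjusted p under 0.05, against 1.85% of all genes tested, and in none did the libraries of the groups separate in CPM, against 7.71% of all genes tested. The fold change was below 0 for 4 of the 6 and above 0 for 2, with a median log2 fold change of -0.0625 against -0.0167 over all genes tested. With scaling to the library total alone the share of all tested genes above 0 moved from 47.5% to 61.6%, and ZP4 (0.0142) and LHX8 (0.0584) were then above 0.

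**Figure D1:**
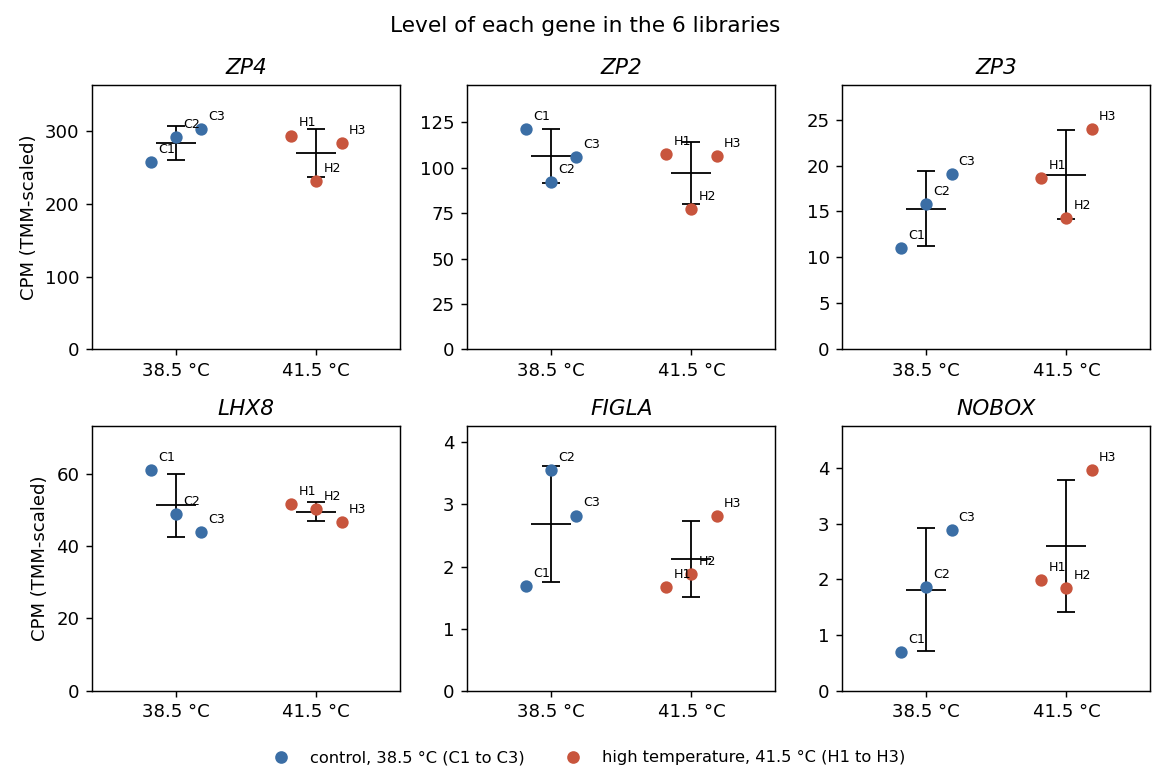
CPM (vertical axis, from 0, own scale in each panel) of 6 genes in the 3 control libraries (blue, C1 to C3) and the 3 high-temperature libraries (red, H1 to H3), with bars for mean and SD. The groups overlap in every panel, and NOBOX runs from 0.692 CPM in C1 to 3.96 CPM in H3.

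ZP4 encodes the zona glycoprotein that, with ZP3, makes up the sperm-binding complex of the pig zona. The gene (Entrez 397111) lies on chromosome 14 from 53577138 to 53584544 on the plus strand of Sscrofa11.1. Its level was 257.3, 291 and 302.3 CPM in the control libraries and 293.4, 231.1 and 283 CPM at 41.5 °C. The heated libraries held the lowest value and otherwise lay inside the range of the controls. The means were 283.5 ± 23.4 CPM (SD, n = 3) and 269.2 ± 33.4 CPM (SD, n = 3). The log2 fold change was -0.0751 (standard error 0.19, edgeR, unadjusted p = 0.697), and its 95% interval ran from 0.705-fold to 1.28-fold. In CPM the highest ZP4 library was 1.31 times the lowest.

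ZP2 encodes the zona glycoprotein that in the mouse is cleaved after fertilization to end sperm binding. The gene (Entrez 396846) lies on chromosome 3 from 24863730 to 24877522, plus strand. It was at 121.3, 91.9 and 105.7 CPM at 38.5 °C and at 107.6, 77.1 and 106.3 CPM at 41.5 °C. Replicate 2 was the lowest library of each group, and the groups overlapped. The means were 106.3 ± 14.7 and 97.0 ± 17.2 CPM (SD, n = 3), with a log2 fold change of -0.13 (standard error 0.22, edgeR, unadjusted p = 0.556) and an interval from 0.647-fold to 1.29-fold. The end of ZP2 overlaps the opposite-strand gene TMEM159, which had 270 to 652 counts per library. The library kit does not mark strand, so reads from the shared stretch may be in either count. Summed with TMEM159, the level was 121.1 ± 14.8 CPM at 38.5 °C and 110.5 ± 18.3 CPM at 41.5 °C.

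ZP3 encodes the third zona component, which forms the filaments together with the other zona proteins. The gene (Entrez 396927) lies on chromosome 3 from 9934760 to 9944924, minus strand. Its values were 11.0, 15.8 and 19.1 CPM at 38.5 °C and 18.7, 14.3 and 24.0 CPM at 41.5 °C. Control replicate 1 was the lowest and high-temperature replicate 3 the highest, and the other 4 libraries were interleaved. The means were 15.3 ± 4.07 and 19.0 ± 4.83 CPM (SD, n = 3), a log2 fold change of 0.31 (standard error 0.29, edgeR, unadjusted p = 0.312) with an interval from 0.784-fold to 1.96-fold. Leaving out control replicate 1 gave 0.12 and leaving out high-temperature replicate 3 gave 0.13. With both left out, an alternative chosen after seeing the data, it was -0.0924.

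Levels of different genes were compared as FPKM, the authors' fragment values scaled for gene length and library size. ZP4 was at 152.8 ± 28 FPKM at 38.5 °C and 153.7 ± 22.7 FPKM at 41.5 °C, ZP2 at 42.5 ± 3.87 and 41.7 ± 8.47 FPKM, and ZP3 at 10.8 ± 3.84 and 14.1 ± 4.28 FPKM (SD, n = 3 each). ZP4 thus contributed 73.9 ± 2.8% of the summed zona FPKM at 38.5 °C and 73.5 ± 1.64% at 41.5 °C. ZP2 contributed 21.0 ± 3.7% and 19.8 ± 0.83%, and ZP3 5.13 ± 1.1% and 6.66 ± 1.06%. The order ZP4, ZP2, ZP3 held in each of the 6 libraries. The ratio of ZP4 to ZP3 was 18.1, 14.2 and 12.2 at 38.5 °C and 12.2, 12.5 and 9.12 at 41.5 °C, with overlap between the groups. The summed zona FPKM was 206.2 ± 32.5 at 38.5 °C and 209.6 ± 35 at 41.5 °C.

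**Figure D2:**
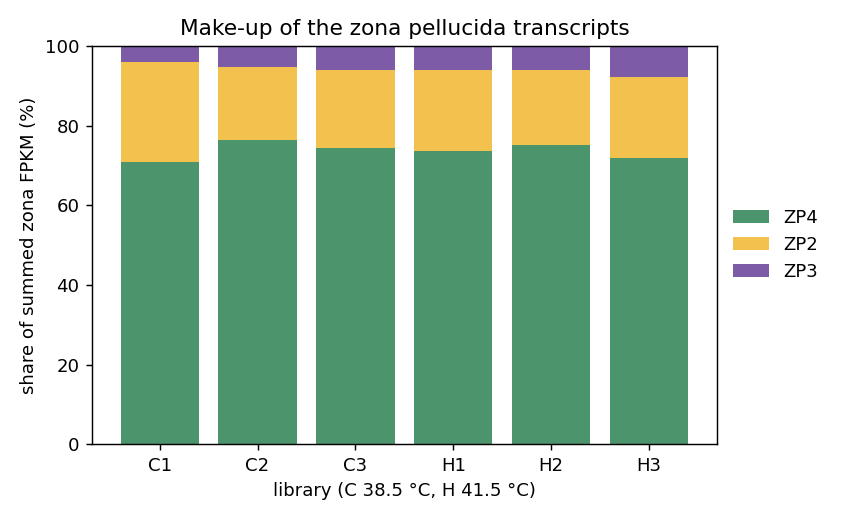
Share of the summed FPKM of the 3 zona genes (vertical axis, percent) taken by ZP4, ZP2 and ZP3 in each control library (C1 to C3) and each high-temperature library (H1 to H3). ZP4 takes 70.9% to 76.5% in every library, and the ZP3 share is smallest in C1 (3.93%) and largest in H3 (7.88%).

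LHX8, a LIM homeodomain factor of early oocyte growth, was per gene length far above FIGLA and NOBOX. The gene (Entrez 100310798) lies on chromosome 6 from 138074673 to 138102025, minus strand. Its level was 61.0, 49.0 and 43.8 CPM at 38.5 °C and 51.6, 50.3 and 46.7 CPM at 41.5 °C. The heated libraries lay inside the range of the controls, and control replicate 1, lowest for ZP3 and NOBOX, was the highest for LHX8. The means were 51.3 ± 8.82 and 49.5 ± 2.57 CPM (SD, n = 3), with a log2 fold change of -0.05 (standard error 0.20, edgeR, unadjusted p = 0.809) and an interval from 0.703-fold to 1.33-fold. The direction depends on the scale: in FPKM the values were 24.6, 23.4 and 21.9 at 38.5 °C and 24.6, 25.9 and 27.7 at 41.5 °C, and the log2(FPKM + 1) difference was 0.16 (limma, adjusted p = 0.999952). In TPM, the other length-scaled unit that the authors deposited, the groups of LHX8 just failed to overlap (highest control 34.51, lowest heated library 34.59). In CPM they overlapped, and the share of all genes that separate in TPM was not computed. On the log2(TPM + 1) scale 57.8% of all tested genes lay above 0, against 47.5% in the main test. The median log2 fold change over all tested genes was 0.0382 on that scale and -0.0167 in the main test. LHX8 was at 0.1547 on that scale and at -0.05 in the main test, a wider move than that of the median. The source of this difference between scales was not tested. LHX8 overlaps LOC110261207, an uncharacterized gene with 304 to 541 counts per library, and added together they stood at 64.4 ± 10.2 CPM at 38.5 °C and 63.4 ± 6.76 CPM at 41.5 °C.

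FIGLA, the zona gene activator, was near 2 CPM. The gene (Entrez 100313961) lies on chromosome 3 from 71709580 to 71723760, plus strand. It had 44, 103 and 85 counts at 38.5 °C (1.69, 3.55 and 2.82 CPM) and 49, 54 and 86 counts at 41.5 °C (1.68, 1.88 and 2.81 CPM). Replicate 1 was the lowest library of each group, and the heated values lay within or just below the range of the controls. The means were 2.69 ± 0.936 and 2.12 ± 0.606 CPM (SD, n = 3), with a log2 fold change of -0.34 (standard error 0.36, edgeR, unadjusted p = 0.365) and an interval from 0.447-fold to 1.39-fold. Without control replicate 2 the log2 fold change was -0.0928, and without control replicate 1 it was -0.59. The exact Poisson 95% interval of the count, which covers counting error only, was 32.0 to 59.1 in control replicate 1 and 84.1 to 124.9 in control replicate 2, so these replicates differed by more than counting error.

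NOBOX, a homeodomain factor of the primordial follicle, was the lowest and the most variable of the 6 genes. The gene (Entrez 100499552) lies on chromosome 9 from 113348363 to 113354504, plus strand. It had 18, 54 and 87 counts at 38.5 °C (0.692, 1.86 and 2.89 CPM) and 58, 53 and 121 counts at 41.5 °C (1.99, 1.84 and 3.96 CPM). The highest library was 5.71 times the lowest, and the exact Poisson 95% intervals of these libraries (10.7 to 28.5 and 100.4 to 144.6 counts) did not meet. The means were 1.81 ± 1.1 and 2.59 ± 1.18 CPM (SD, n = 3). The log2 fold change of 0.51 (standard error 0.52, edgeR, unadjusted p = 0.358) had an interval from 0.618-fold to 3.28-fold. Leaving out control replicate 1 gave 0.13, leaving out high-temperature replicate 3 gave 0.0948, leaving out control replicate 3 gave 1.02, and leaving out both extreme libraries gave -0.32.

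In FPKM, the 6 libraries of ZP4 all lay above those of ZP2 (lowest ZP4 library 121.4, highest ZP2 library 48.2). ZP2 lay above LHX8 in the same way (32.1 against 27.7), LHX8 above ZP3 (21.9 against 18.7) and ZP3 above FIGLA (6.73 against 4.05). FIGLA and NOBOX overlapped over libraries (1.63 against 2.31), although FIGLA was higher in each of the 6. Over all 30376 genes ranked by mean FPKM, ZP4 stood at rank 428, ZP2 at 1377, LHX8 at 2039, ZP3 at 3179, FIGLA at 6776 and NOBOX at 8904.

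The 6 genes did not vary together from library to library. NOBOX and ZP3 put the 6 libraries in one order (Pearson r = 0.95, Spearman rho = 1.0 of log2 CPM, n = 6 libraries, 15 pairs of genes computed), and NOBOX and LHX8 ran opposite (r = -0.92, rho = -0.77, n = 6). Without control replicate 1 and high-temperature replicate 3, r was 0.72 and -0.91 over the remaining 4 libraries. These libraries are the same for all genes, and 18S ribosomal RNA took the order of NOBOX at both ends: NOBOX was lowest where 18S was 104.7 CPM and highest where it was 968 CPM. The part of ribosomal RNA content or library make-up in these differences was not tested. ZP2 and ZP4 followed neither pattern, with high-temperature replicate 2 the lowest library for both.

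**Figure D3:**
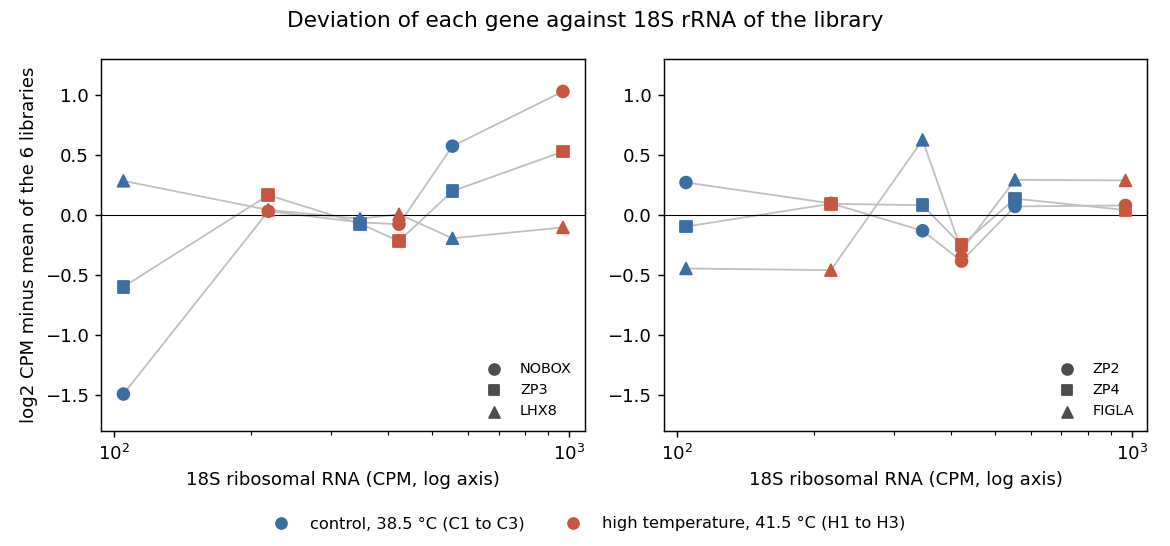
Deviation of each gene from its mean over 6 libraries (log2 CPM, vertical axis) against 18S ribosomal RNA of the library (CPM, log axis), blue for control and red for high temperature, with NOBOX, ZP3 and LHX8 on the left and ZP2, ZP4 and FIGLA on the right. NOBOX and ZP3 are lowest in the library at 104.7 CPM of 18S and highest in the library at 968 CPM, where LHX8 is among the lower values.

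The genes whose pattern over the 6 libraries was most like each member were taken from named genes with a mean of at least 10 CPM, by Pearson r of log2 CPM, as a description. For NOBOX they were YBX2, an RNA-binding protein of germ cells (r = 0.9965), MFSD1 (0.9964) and ZBTB39 (0.9958), and 468 of 5483 genes (8.54%) reached an r of 0.9. For LHX8 they were PGAP1 (0.9935), CARNMT1 (0.9919) and SPCS2 (0.9918), with 940 of 5482 genes (17.2%) at 0.9 or more. ZP3 was closest to PCMTD2 (0.9896), POU2F1 (0.9895) and MB21D2 (0.9882), with 187 genes (3.41%) at that level. FIGLA was closest to MASTL, a mitotic kinase (0.9847), TSG101 (0.982) and SYNRG (0.9712), with 71 genes (1.3%). Few genes resembled ZP2 (ACSBG1 0.9727, FAM149B1 0.9632, CCNG2 0.9618, and 14 genes or 0.255% at 0.9) or ZP4 (DIP2B 0.956, GALNT7 0.9552, ADPGK 0.9273, and 6 genes or 0.109%). The patterns of NOBOX and LHX8 were thus shared by 468 and 940 transcripts at that r, and those of ZP2 and ZP4 by 14 and 6.

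The precision differed between the genes, and the part of read count in this was not tested. The 95% interval of the fold change lay within 2-fold up or down for 4 of the 6 genes (ZP2, ZP3, ZP4 and LHX8) and within 4-fold for all 6, against 49.7% and 91.8% of all genes tested. For FIGLA a fall of more than 2-fold and for NOBOX a rise of up to 3.28-fold remained inside the interval.

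**Figure D4:**
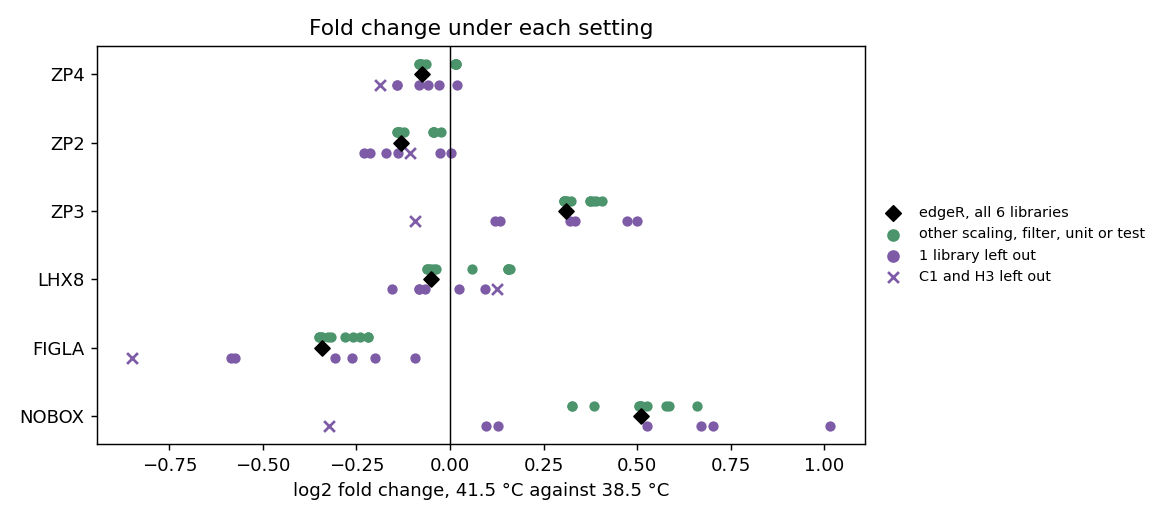
Log2 fold change at 41.5 °C against 38.5 °C (horizontal axis) of each gene by edgeR on all 6 libraries (black), under other scalings, filters, units or tests (green), with 1 library left out (purple dots) and with C1 and H3 left out together (purple crosses). FIGLA stays below 0 in all 18 alternatives run, LHX8 changes sign in 8 and ZP4 in 6, and the cross of NOBOX lies at -0.32.

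OOSP2 encodes an oocyte-secreted protein, a small product of the oocyte whose family lies in a gene cluster. An oocyte-secreted protein was the product of 4 rows, all on chromosome 2, which are named here after their values were seen. LOC100512212 (11426042 to 11433511, minus strand), with the product name oocyte-secreted protein 2, was at 2420, 2751 and 2640 CPM at 38.5 °C and at 1577, 2150 and 2503 CPM at 41.5 °C. High-temperature replicate 1 was the lowest library, and high-temperature replicate 3 lay inside the range of the controls. Its means were 2604 ± 168.9 and 2077 ± 467 CPM (SD, n = 3), a log2 fold change of -0.33 (standard error 0.21, edgeR, unadjusted p = 0.158, adjusted p = 0.999923).

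The neighbours were also abundant. LOC110259255 (11449620 to 11464907, minus strand), an oocyte-secreted protein 1-like gene, was at 465.3, 459.8 and 511.4 CPM at 38.5 °C and 290.6, 395.7 and 427.3 CPM at 41.5 °C. LOC110259711 (11500444 to 11513489, plus strand), a putative oocyte-secreted protein 1 homolog, was at 2944, 2366 and 2329 CPM at 38.5 °C and 2065, 1799 and 1781 CPM at 41.5 °C. For both, every heated library lay below every control library in CPM, as in 4.05% of all genes tested. In FPKM the groups of LOC110259255 overlapped, at 275.8, 320.9 and 372.3 against 202.3, 275.3 and 323.6. LOC110259712 (11519034 to 11538937, plus strand), the other homolog, was at 4253, 3969 and 4177 CPM at 38.5 °C and 3209, 3663 and 4056 CPM at 41.5 °C, with overlap.

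The log2 fold change was -0.37 (standard error 0.20, unadjusted p = 0.108) for LOC110259255, -0.44 (0.18, 0.0414) for LOC110259711 and -0.18 (0.17, 0.31) for LOC110259712, and the edgeR adjusted p was 0.999923 for each. With the replicate number as a block, the 95% interval left out 0 for LOC100512212 (-0.63 to -0.0733), LOC110259255 (-0.67 to -0.10) and LOC110259711 (-0.65 to -0.21). Their edgeR adjusted p was then 0.458, 0.454 and 0.301. For LOC110259712 the interval held 0 (-0.43 to 0.0585). All 4 fold changes stayed below 0 in the 18 alternatives run, which reuse the same libraries. LOC110259255 overlaps LOC110259256, an uncharacterized gene on the other strand at 39.0 to 112.3 CPM, and summed with it the level was 560.3 ± 53.7 CPM at 38.5 °C and 445.9 ± 106.8 CPM at 41.5 °C (SD, n = 3), with overlap (lowest control 522 CPM, highest heated library 539.6 CPM). No source used here tells how reads of similar copies were assigned, so the values of single copies are uncertain. Per length these were among the most abundant transcripts of the embryo, at mean FPKM ranks 52, 206, 27 and 22 of 30376.

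**Figure D5:**
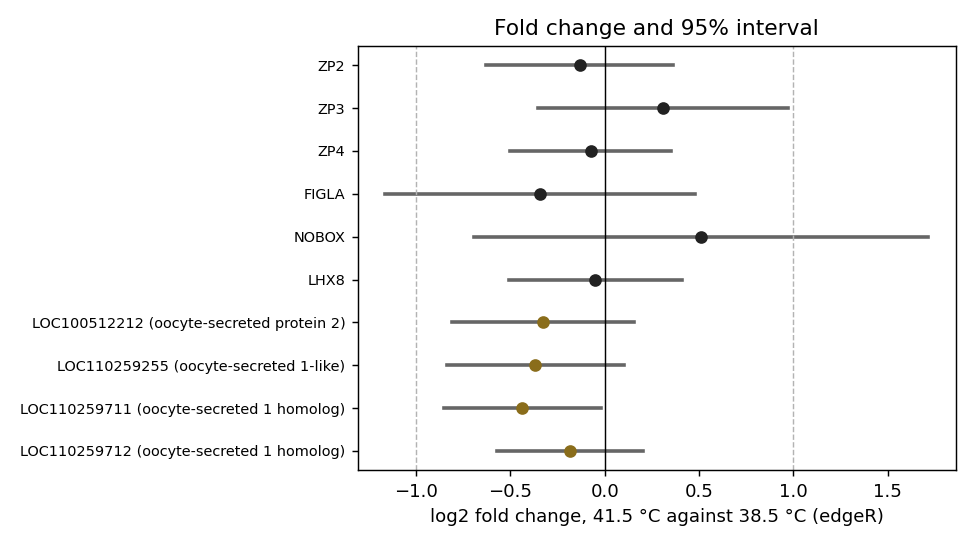
Log2 fold change at 41.5 °C against 38.5 °C (horizontal axis, edgeR) with its 95% interval for the 6 genes (black) and 4 oocyte-secreted protein genes named by product (brown), with dashed lines at 2-fold. In this fit, without the replicate number as a block, the interval holds 0 for all except LOC110259711 (-0.85 to -0.0217), whose adjusted p was 0.999923.

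Other genes around the members were read from lists chosen with earlier results of these data known. Of 15 genes with a zona pellucida domain or of the oocyte-secreted family, 8 were matched by symbol and 2 had enough reads for the test. TECTB was at 5.48 ± 0.682 CPM at 38.5 °C and 6.42 ± 1.67 CPM at 41.5 °C, OIT3 at 0.42 ± 0.171 and 0.693 ± 0.208 CPM, and PLAC1, below the filter, at 0.317 ± 0.099 and 0.229 ± 0.223 CPM (SD, n = 3). The smallest unadjusted p was that of OIT3 (edgeR, 0.179), and 0 of 2 were called. TECTB and OIT3 carry the domain by which zona proteins polymerize.

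Among 12 genes of the egg surface and of zona processing 11 were tested, 8 with a fold change above 0, 3 below and 0 past the test (median log2 fold change 0.12). The SNARE protein SNAP23, of membrane fusion, was at 272.5 ± 9.07 CPM at 38.5 °C and 235.2 ± 45.2 CPM at 41.5 °C. The vesicle GTPase RAB27A was at 94.8 ± 9.01 and 90.1 ± 18.7 CPM, and the laminin receptor subunit ITGA6 at 47.4 ± 4.8 and 49.4 ± 5.57 CPM (SD, n = 3). FURIN, a protease of the secretory pathway, had the smallest unadjusted p of the list (edgeR, 0.117, adjusted p = 0.999923). It was at 0.539, 1.72 and 1.36 CPM at 38.5 °C and 1.85, 2.02 and 2.16 CPM at 41.5 °C. Each heated library lay above each control, as in 3.66% of all genes tested, on 14 to 66 counts per library. Of the 11 tested genes 2 separated in this way. The other was RAB3A, at 0.462 to 0.759 CPM at 38.5 °C and 0.856 to 0.973 CPM at 41.5 °C (12 to 29 counts).

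Of 19 oocyte transcription factors, their partners and inhibitors 18 were tested, 12 with a fold change above 0, 6 below and 0 past the test (median 0.14, edgeR). The coactivator SUB1 was at 2958 ± 1744 CPM at 38.5 °C and 2476 ± 948.8 CPM at 41.5 °C, the dynein light chain DYNLL1 at 1737 ± 314.1 and 1628 ± 379.5 CPM, and the helix-loop-helix inhibitor ID3 at 313.3 ± 185.2 and 364.3 ± 122.6 CPM (SD, n = 3). FOXO3, which holds primordial follicles dormant, had the smallest unadjusted p (0.0235, adjusted p = 0.999923). It was at 4.12, 4.76 and 4.55 CPM at 38.5 °C and 6.71, 6.04 and 8.60 CPM at 41.5 °C, and the groups did not overlap in CPM, as for 3.66% of all genes tested in that direction. Of the 18 tested, 2 had an unadjusted p under 0.05, against 1.85% of all genes tested. The other was the inhibitor ID1 (edgeR, 0.0489, adjusted p = 0.999923), at 6.417 ± 1.545 and 12.57 ± 6.322 CPM (SD, n = 3), with overlap between the groups. TCF3, the partner of FIGLA, was at 2.17 ± 0.638 and 3.18 ± 0.327 CPM, and SOHLH1, an upstream factor of the germ line, had 0 counts in all 6 libraries.

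Of 20 symbols listed for other oocyte genes, several of which depend on these factors in the mouse, 18 were matched and 17 tested. H1FOO, which was matched, and H1-8, which was not, are symbols of the same gene. Of the 17 tested, 9 had a fold change above 0 and 8 below, with 0 past the test (median 0.0106, edgeR). Without control replicate 1, and likewise without high-temperature replicate 3, only 4 of the 17 were above 0, and on the log2(TPM + 1) scale 14 of 16 were. Of all genes tested, 51.2%, 50.3% and 57.8% were above 0 in these settings, in the same order, against 47.5% in the main test. DNMT1, which copies DNA methylation at replication, was at 8535 ± 1621 CPM at 38.5 °C and 8075 ± 1749 CPM at 41.5 °C. DPPA3, which protects maternal methylation, was at 1841 ± 527 and 1347 ± 173.2 CPM, and the oocyte growth factor BMP15 at 838.4 ± 105.5 and 888.3 ± 81.2 CPM (SD, n = 3). NLRP14 had the smallest unadjusted p (0.0594, adjusted p = 0.999923), at 0.815 ± 0.18 and 0.405 ± 0.144 CPM, and the groups did not overlap in CPM, as for 4.05% of all genes tested in that direction. Of 7 tested cumulus and granulosa markers 2 were above 0, 5 below and 0 called (median -0.11). Without control replicate 1 it was 5 of 7 above 0, and without control replicate 2, high-temperature replicate 1 or high-temperature replicate 2 it was 1 of 7. INHBA was at 7.08 ± 2.17 and 8.81 ± 0.815 CPM, NR2F2 at 8.67 ± 5.24 and 6.32 ± 2.73 CPM and VCAN, with the smallest unadjusted p (0.246), at 8.08 ± 1.5 and 6.60 ± 0.324 CPM.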

How the data were processed

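The deposited values are raw read counts for each gene, in whole numbers, per the file headers, beside FPKM and TPM values the authors computed from the same libraries, per the file headers. The coverage signal in the per-sample tables deposited by the authors was not used. Tools listed in the submitters' processing notes, without their roles, are StringTie 2.1.3b, HISAT2 2.1.0, HISAT, Bowtie2 and Trimmomatic 0.38, with the build Sscrofa11.1. No source used here states the counting tool or its rule for overlaps. Series columns were matched to samples by title, and 99.4% to 99.5% of genes had FPKM equal within 1e-05 to the sample's own table. Rows without a gene symbol (24 mitochondrial RNA rows) held 0.527% to 0.658% of counts and were kept. Positions came from a RefSeq table of Sscrofa11.1 by Entrez ID (30352 genes matched). Promoter and protein sequences were not analysed here.

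The main test was edgeR 4.0.16 under R 4.3.3 (quasi-likelihood test, TMM scaling, default expression filter, group as single term, Benjamini-Hochberg over 16056 genes at 0.05) and the test was checked on simulated counts. DESeq2 1.42.0 and limma 3.58.1, on log2(FPKM + 1) and log2(TPM + 1), served as alternatives. Levels are TMM-scaled CPM. Members and lists were chosen with earlier results of these data known. Named from each list were called genes or else the 3 of highest mean CPM and the 1 of smallest p. TCF3 and SOHLH1 were added for their roles, and ID1 for its unadjusted p under 0.05.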

Additional observations from a re-analysis of the deposited data

How the results depend on the processing

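No member was called under any of the 18 alternatives, with an adjusted p from 0.404 (FIGLA, without control replicate 1 and high-temperature replicate 3) upward. Over all genes 0 were called by edgeR (297 at an unadjusted p under 0.05), 1 with no filter on low counts, 6 by the DESeq2 Wald test and 1 without both extreme libraries (an alternative chosen after seeing the data). Leaving out each library in turn gave 0 to 0 calls. With the replicate number as a block 3 genes were called. The block lowered the standard error from 0.22 to 0.11 for ZP2 and from 0.52 to 0.30 for NOBOX. The members' edgeR adjusted p with the block was 0.576 (NOBOX) or more. The numbers were not taken as pairs in the main test. The correlation of deviations of same-numbered libraries over 16056 genes was 0.52, 0.008 and 0.59 for replicates 1, 2 and 3. It was -0.57 for control replicate 1 with high-temperature replicate 3 and -0.52 for control replicate 3 with high-temperature replicate 1. Replicates 1 and 3 thus correlated best with their own number, and replicate 2 did not. ZP4 turned to 0.0142 with library totals alone, 0.0149 on the log2(FPKM + 1) scale with and without the filter on low values, 0.0151 with a pseudocount of 0.1 and 0.0121 in TPM. LHX8 turned to 0.0584, 0.1556, 0.1613 and 0.1547 in the same order. With 1 library left out the log2 fold change ranged from -0.23 to 0.0035 for ZP2, from -0.14 to 0.0193 for ZP4, from -0.16 to 0.0925 for LHX8, from 0.12 to 0.50 for ZP3, from 0.0948 to 1.02 for NOBOX and from -0.59 to -0.0928 for FIGLA. Without both extreme libraries it was -0.0924 for ZP3, -0.32 for NOBOX and 0.13 for LHX8. The cause was not tested. NOBOX and FIGLA had 18 to 121 reads per library, and the part of these low counts in their wide intervals was not tested.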

Other observations

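ZPBP2, which encodes a zona-binding protein of the sperm acrosome, had 625, 751 and 524 counts in control embryos and 664, 602 and 577 counts at high temperature, or 22.4 ± 4.47 and 20.8 ± 1.93 CPM (SD, n = 3). Its paralog ZPBP had 6, 0 and 4 counts in controls and 0 in all 3 heated libraries. Per length ZPBP2 was at 11.3 to 16.5 FPKM over the libraries, where ZP3 was at 6.73 to 18.7 FPKM. It overlapped no other gene span in the annotation, and its log2 fold change was -0.11 (edgeR, adjusted p = 0.999923). Both were named after their values were seen.

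The egg tetraspanins CD9 and CD81, known for their part in fusion with sperm, varied widely between libraries of one group. CD81 was at 11.2 CPM in control replicate 2 and 13.4 CPM in high-temperature replicate 1, and at 0.731 to 1.46 CPM in the other 4 libraries (19 to 44 counts against 326 and 392). CD9 was at 29.5, 9.41 and 5.48 CPM in controls and 18.3, 11.4 and 3.63 CPM at high temperature. It thus fell with replicate number in both groups, as the mean of the ribosomal protein genes did. ASTL, the cortical granule protease that cleaves ZP2 in the mouse, was at 8.29 ± 1.65 and 9.79 ± 0.93 CPM (SD, n = 3), and the sperm receptor gene IZUMO1R at 6 to 21 counts per library.

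Of the oocyte factors of general transcription, TAF4B was at 132.6, 84.0 and 61.0 CPM in controls and 134.1, 94.0 and 66.5 CPM at high temperature, a like spread in both groups. Like the ribosomal protein genes, it fell with replicate number in each group. TBPL2, the oocyte form of the TATA-binding protein, was at 5.81 ± 0.993 and 4.70 ± 0.659 CPM (SD, n = 3).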
